A study of Mus musculus with 106 samples.

Results

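The genes read here were 59 genes of the cell cycle and of DNA replication, out of 21938 protein-coding genes. They were named by a list, chosen with earlier results of these data known, rather than by a measured value. They comprised 15 genes of origin licensing and the replication fork, 4 of deoxynucleotide synthesis, 9 E2F factors and pocket proteins, 8 G1 cyclins and kinases, 6 inhibitors of cyclin-dependent kinases, 4 S to M cyclins and kinases, 9 mitotic genes, and 4 phosphatases and checkpoint kinases. A promoter was the stretch within 1000 bp of any annotated start site of the gene. At each promoter, chromatin immunoprecipitation sequencing gave the acetyl mark H3K27ac, found at active promoters and enhancers, and the methyl mark H3K4me3, found at active and poised promoters.

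The cells came from C57BL/6J mice that were 12 to 14 weeks old when assigned to groups, either nondiabetic age-matched controls or mice made diabetic with streptozotocin, a toxin of pancreatic beta cells, at 42 to 45 mg/kg/day on 5 days and studied 6 weeks later with glucose above 13.9 mmol/L. Cells called HSC were bone marrow depleted of cells carrying lineage antigens, so they were a mixture of stem and progenitor cells. Bone marrow-derived macrophages (BMDM) were grown from flushed whole marrow for 7 days at 5 mmol/L glucose with L929-conditioned medium, and then received either plain medium (unstimulated) or LPS at 100 ng/mL together with IFN-γ at 10 ng/mL over 16 hours. Each mark had 6 libraries per group of cell state and disease, except 5 for unstimulated BMDM of diabetic mice, giving 70 lists of peaks.

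A cell enters the cycle when D-type cyclins with Cdk4 or Cdk6 modify the retinoblastoma family of pocket proteins, which releases E2F factors to switch on genes for DNA synthesis. Origins are licensed by the Orc, Cdc6, Cdt1 and Mcm proteins, entry into mitosis is driven by cyclins A and B with Cdk1, and kinase inhibitors such as Cdkn1a hold the cycle back. In bone marrow, progenitors divide often, whereas macrophages divide less as they mature, although macrophages grown in conditioned medium still cycle.

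Promoter sequences are shown for the members with the largest H3K27ac difference between HSC and unstimulated BMDM, in each direction, and for those with the highest mean rank over all lists. The RefSeq promoter table for GRCm38.p6 held 47 of the 59 members in 54 windows, each 300 bases long with 250 bases before the start site and 50 after. Ccnd1, which fell among the members to be shown, is named only, and so are Aurkb, Ccna2, Ccnd2, Ccne2, Cdkn1c, E2f4, Gins1, Gins2, Mcm4, Rb1 and Wee1. Capitals mark matches, on either strand, to an E2F site (TTTCCCGC, TTTCGCGC, TTTGCCGC or TTTGGCGC), a cell cycle homology region (CHR, read as TTTGAA), the box CCAAT, named by its letters, or a TATA box, read as the 6 letters TATAAA. The E2f2 window (chr4:136172024-136172323, + strand) and the Rrm1 window (chr7:102441445-102441744, + strand) belong to promoters higher in HSC, and the Cdkn1a window (chr17:29093519-29093818, + strand) to one lower in HSC. The Cdk6 window (chr5:3343643-3343942, + strand) and the window of the downstream E2f3 start (chr13:29984342-29984641, − strand) belong to the members with the highest mean percentiles.
E2f2: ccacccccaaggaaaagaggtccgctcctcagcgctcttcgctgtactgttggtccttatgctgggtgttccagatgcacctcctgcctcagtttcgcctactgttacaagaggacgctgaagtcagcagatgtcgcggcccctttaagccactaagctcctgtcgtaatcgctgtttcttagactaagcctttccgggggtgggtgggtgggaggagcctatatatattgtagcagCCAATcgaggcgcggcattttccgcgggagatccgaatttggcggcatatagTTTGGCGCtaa
Rrm1: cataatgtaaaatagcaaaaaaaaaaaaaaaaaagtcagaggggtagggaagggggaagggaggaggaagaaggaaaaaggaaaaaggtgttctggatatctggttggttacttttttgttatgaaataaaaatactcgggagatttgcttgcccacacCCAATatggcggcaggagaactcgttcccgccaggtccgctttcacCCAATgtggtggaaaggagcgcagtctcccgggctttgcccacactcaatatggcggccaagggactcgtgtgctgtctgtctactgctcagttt
Cdkn1a: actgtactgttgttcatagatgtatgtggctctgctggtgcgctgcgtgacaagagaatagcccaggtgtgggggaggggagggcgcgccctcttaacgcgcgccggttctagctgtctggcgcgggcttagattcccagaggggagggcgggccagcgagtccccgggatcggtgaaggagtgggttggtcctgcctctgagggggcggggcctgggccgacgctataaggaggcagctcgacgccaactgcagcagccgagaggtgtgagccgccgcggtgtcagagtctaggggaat
Cdk6: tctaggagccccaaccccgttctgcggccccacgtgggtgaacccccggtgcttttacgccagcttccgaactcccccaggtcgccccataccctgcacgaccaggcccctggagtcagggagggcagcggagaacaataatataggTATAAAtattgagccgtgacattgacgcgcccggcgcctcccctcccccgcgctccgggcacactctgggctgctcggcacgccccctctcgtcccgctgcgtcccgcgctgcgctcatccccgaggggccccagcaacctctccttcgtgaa
E2f3: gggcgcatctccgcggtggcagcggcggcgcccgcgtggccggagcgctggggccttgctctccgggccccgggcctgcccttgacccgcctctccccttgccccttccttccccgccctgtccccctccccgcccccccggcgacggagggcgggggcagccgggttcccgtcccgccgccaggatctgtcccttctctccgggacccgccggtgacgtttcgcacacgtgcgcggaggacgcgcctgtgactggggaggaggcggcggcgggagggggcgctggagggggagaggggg

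The E2f2 window held an E2F site from 39 to 46 bases after its start and a CCAAT box from −13 to −9. The Rrm1 window held CCAAT boxes from −91 to −87 and from −45 to −41, the Cdk6 window a TATA box from −103 to −98, and the windows of Cdkn1a and of the downstream E2f3 start none of these letters. An E2F site was present in 15 of 54 member windows (27.78%), against 2.873% of 20150 windows of protein-coding genes. The CCAAT box was in 66.67% of member windows against 37.82%, the GC box (GGGCGG) in 81.48% against 47.75%, CHR in 25.93% against 15.22% and the TATA box in 3.704% against 12.15%. Member windows had a median GC content of 59% and a median of 23.5 CpG, against 57% and 14 over all windows. The members with an E2F match were Mcm3, Mcm5, Mcm6, Mcm7, Orc1, Cdc6, Cdt1, Cdk1, Cdk2, Cdc25a, Cdkn2a, Rbl1, E2f2, E2f3 and E2f7, the last 3 of which code for E2F factors themselves. A match is a string of letters and not a measured site of binding.

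**Figure D1:**
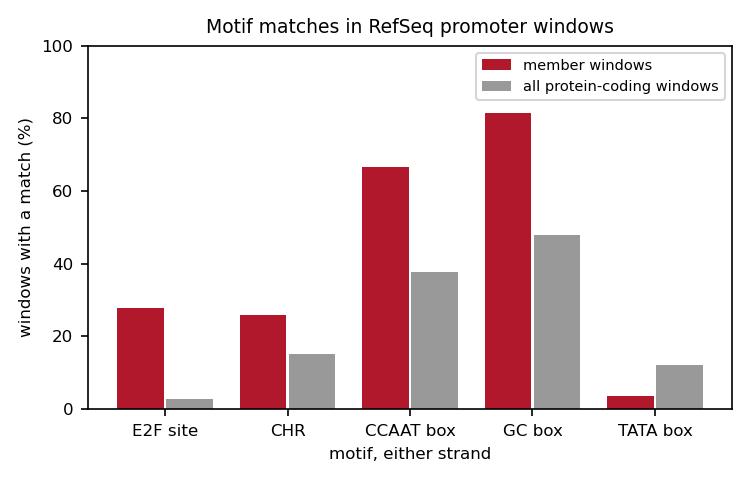
Percentage of RefSeq promoter windows of 300 bases (y axis) with at least 1 match to each motif on either strand (x axis), for 54 windows of cell cycle members (red) and 20150 protein-coding windows (grey). The E2F site was in 27.78% of member windows and 2.873% of all windows, whereas the TATA box was in 3.704% and 12.15%.

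Within each list every gene was ranked by the strongest −log10 p of a peak at its promoter and the rank was written as a percentile, where 100 was the strongest of 21938 promoters and promoters without a peak were tied at the bottom. The lists hold no read totals, so the depth behind a percentile is unknown, and a share of cells carrying a mark cannot be told apart from the amount of mark per cell. Cell state was checked with marker promoters. In H3K27ac, 7 of 10 stem and progenitor markers were higher in HSC than in unstimulated BMDM, among them Kit and Myb, and 6 of 7 tested macrophage markers were lower, among them Csf1r and Cd14. Erythroid markers were also higher in HSC at 3 of 3 tested promoters of 7 listed. The median percentile of the 7 erythroid promoters was 46.56 to 63.09 in HSC libraries and 13.96 to 38.40 in unstimulated BMDM libraries, and the part of erythroid precursors in the results below was not tested. Megakaryocyte markers moved at 1 promoter each way of 4 tested, lymphoid markers at 0 of 4, and granulocyte and monocyte progenitor markers at 1 of 6, higher in HSC.

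In H3K27ac, 3 control BMDM libraries stood apart from their labels. Away from the members, 165 promoters were higher in stimulated and 277 in unstimulated BMDM of diabetic mice without overlap. The library labelled control LPS+IFN-γ replicate 5 was on the high side at 43 of the first and 203 of the second set, whereas the other LPS+IFN-γ libraries were high at 121 to 149 and at 17 to 95. The library labelled control unstimulated replicate 5 was high at 111 and 57, and that labelled control unstimulated replicate 6 at 113 and 79, whereas unstimulated replicates 2 to 4 were high at 30 to 68 and at 177 to 241. Unstimulated replicate 1 fell between, at 88 and 129, and was not counted among the 3. Values are given as labelled, and results that rest on these 3 libraries also without them. The 3 were picked by their pattern at promoters that part stimulated from unstimulated BMDM. Leaving them out therefore favours larger stimulation differences and smaller p-values. In H3K4me3 only 47 and 49 promoters parted the diabetic groups, and the libraries were less well separated.

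Most lists held a peak of each mark at nearly every member promoter. Over all genes, the share with a peak in a list was 56.81% to 73.63% in H3K27ac and 40.78% to 79.34% in H3K4me3. A peak of H3K27ac was present at 56 members in all 35 lists, a peak of H3K4me3 at 41 members in all 35 lists, and both in all 70 lists at 38 members. In H3K27ac the others were Cdkn1c, the inhibitor p57, with a peak in 28 of 35 lists, and Ccna2 and Rrm2 with 34 each. The longest gaps in H3K4me3 came from a single short list, diabetic HSC replicate 6 with 13730 peaks, in which 45 members were marked. Among the 10000 strongest H3K27ac peaks of a list, 50 to 56 members were marked in HSC, 35 to 50 in unstimulated BMDM and 20 to 48 in stimulated BMDM, whereas the share of all genes so marked was 39.59% to 44.77%, 36.51% to 42.65% and 32.31% to 42.22%. In H3K4me3 the members so marked were 31 to 51, 40 to 51 and 41 to 56 in the same order. The shares of all genes were 34.03% to 42.71%, 39.06% to 43.13% and 35.44% to 42.79%. Over all 70 lists the highest mean percentiles were those of Cdk6 (91.64), E2f3 (90.55), Cdt1 (88.79) and Cdkn2c (87.6), and the lowest was that of Cdkn1c (51.85).

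**Figure D2:**
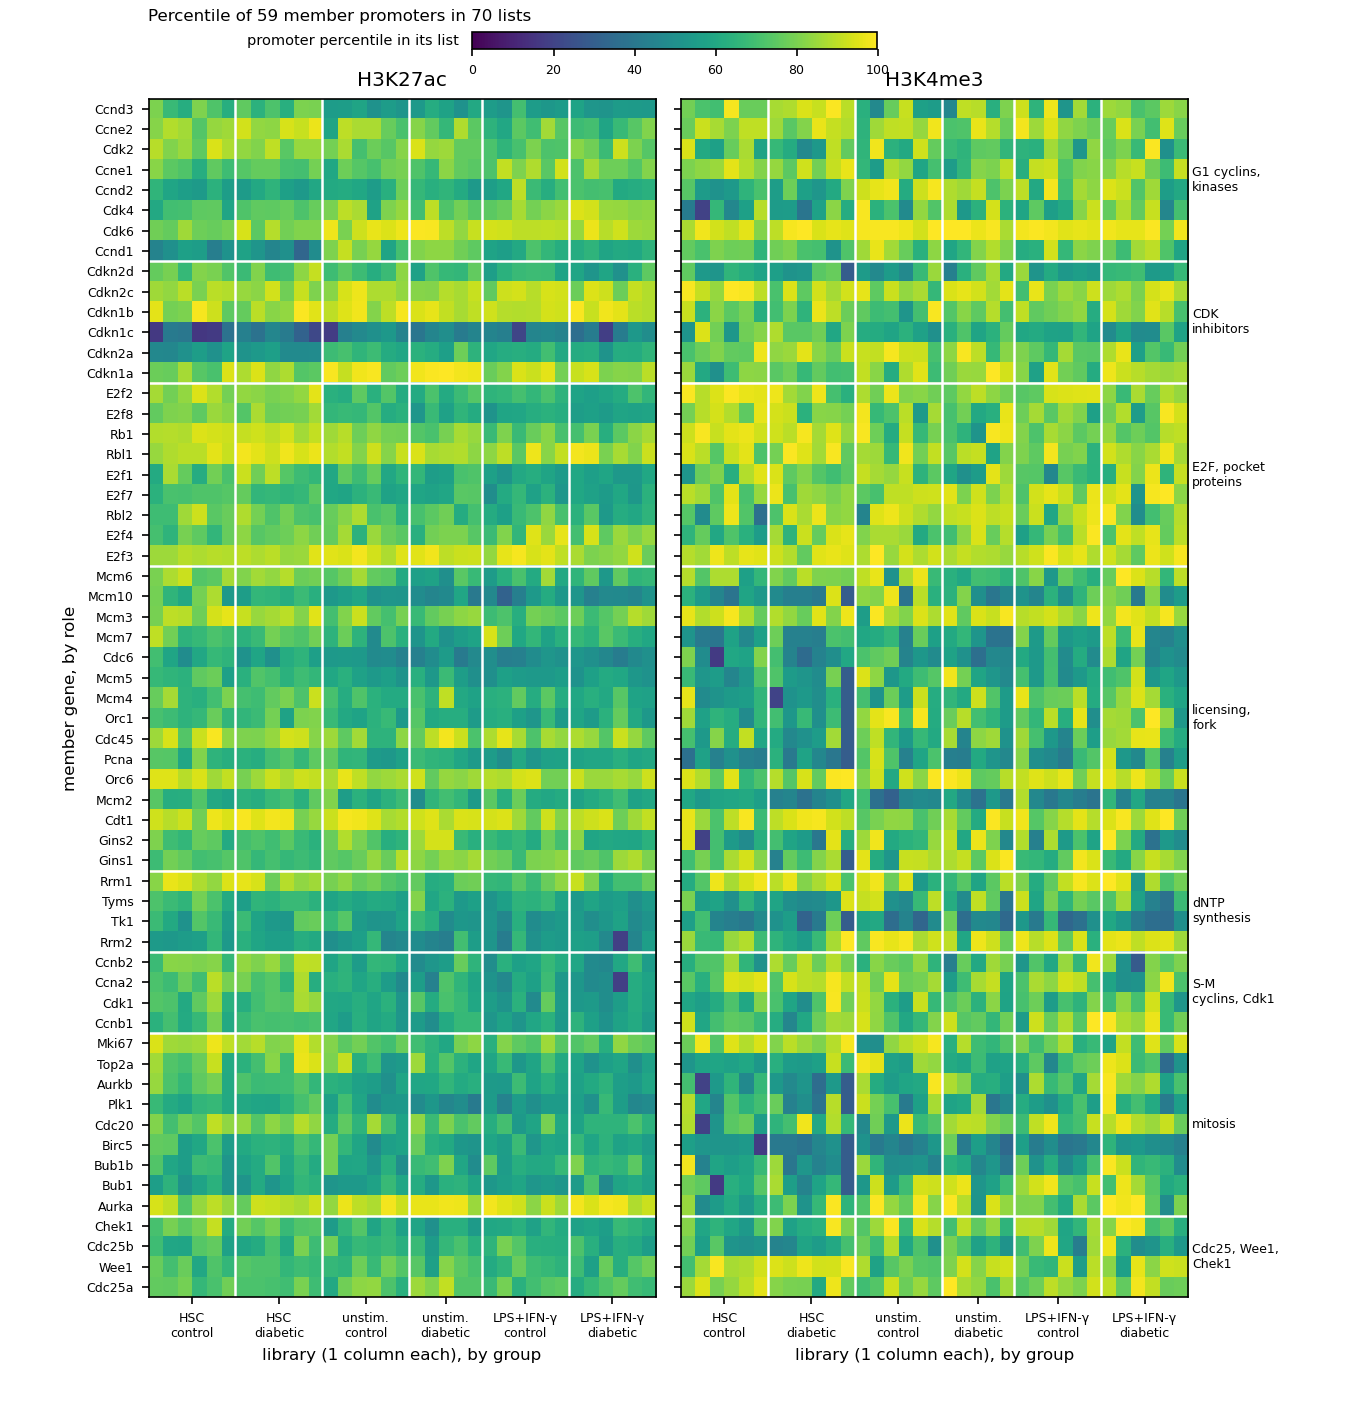
Promoter percentile (colour, 0 to 100, where 100 is the strongest promoter of a list) of the 59 members (rows, by role) in each of 35 H3K27ac libraries (left) and 35 H3K4me3 libraries (right), with 1 column per library and white lines between groups. Cdkn1c was the lowest row of H3K27ac, and Ccnd1, Cdkn2a and the S to M cyclins changed colour between HSC and BMDM.

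The first comparison asked where the marks of these genes differ between progenitors and the macrophages grown from them. For H3K27ac, 30 of 59 members passed the threshold, 23 higher and 7 lower in HSC than in unstimulated BMDM. Over all 14838 promoters tested, 31.1% passed, 15.8% higher and 15.3% lower. Promoters marked only in HSC were not among those tested, by the rule given above. Without the 3 control BMDM libraries 27 members passed, 20 higher and 7 lower, beside 29.2% of all promoters (14.6% higher and 14.7% lower). In control mice alone 16 members passed (14.6% of all promoters) and in diabetic mice alone 18 (15.0%). The difference is given in units of the normal score of the rank, and its median was 0.19 over the members and 0.01 over all promoters tested. Genes of DNA synthesis, E2F factors and S to M cyclins made up most of the members that were higher, whereas Ccnd1, Cdk6 and the inhibitors Cdkn1a and Cdkn2a were lower. Groups did not overlap at 2 members that were higher, E2f2 and Ccnd3 (0.876% of all promoters), and at 1 that was lower, Ccnd1 (2.12%). A second list of 70 other cell cycle and replication genes had 30 higher and 2 lower, with a median difference of 0.19. That list was also chosen with earlier results of these data known, so it is not independent of them. The erythroid promoters named above were higher in the same libraries.

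Of the E2F factors and pocket proteins, 5 of 9 were higher and 1 was lower. E2f2, an activating E2F, had percentiles from 78.76 to 95.74 with a median of 83.70 in 12 HSC libraries, and from 61.01 to 75.14 with a median of 63.47 in 11 unstimulated BMDM libraries. Every HSC library was above every BMDM library, and the difference was 0.63 (SE 0.095, adjusted p = 4.995e-06 by limma with Benjamini-Hochberg adjustment). E2f8, an E2F that represses transcription, was at 80.29 ± 4.46 (SD, n = 12) in HSC and 63.98 ± 5.65 (SD, n = 11) in BMDM (difference 0.51, limma adjusted p = 6.786e-07). Rb1, the retinoblastoma pocket protein, was at 90.88 ± 2.67 and 80.84 ± 5.63 (difference 0.47, limma adjusted p = 0.0001925). E2f1 rose by 0.31 (limma adjusted p = 0.02386) and E2f7 by 0.19. The call of E2f1 was lost when any of 4 single libraries was left out, which were diabetic unstimulated replicate 2, diabetic HSC replicates 1 and 3 and control HSC replicate 2 (limma adjusted p up to 0.05285), and without the 3 control BMDM libraries (0.07042). E2f3 went the other way, from 93.83 ± 3.18 in BMDM to 88.13 ± 3.06 in HSC (difference −0.39, limma adjusted p = 0.01033), and remained among the strongest promoters in both.

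Of the licensing and fork genes, 7 of 15 were higher and 1 was lower. The helicase subunit Mcm6 was at 82.54 ± 5.86 in HSC and 68.70 ± 11.16 in BMDM (difference 0.47, limma adjusted p = 0.001618), and the ranges of the libraries overlapped. In control mice alone its difference was 0.28 and did not pass (limma adjusted p = 0.2421). Mcm10, Mcm3, Mcm7, Cdc6, Mcm5 and Orc1 differed by 0.44, 0.43, 0.37, 0.27, 0.27 and 0.23. The Mcm7 window also holds a start of Ap4m1 and the Orc1 window one of Prpf38a. Mcm2, another subunit, differed by 0.07 (limma adjusted p = 0.5479), and Pcna, the sliding clamp of the polymerases, by 0.19 (limma adjusted p = 0.06004). Gins1, part of the active helicase, was lower in HSC, at 70.69 ± 3.90 against 81.10 ± 4.97 (difference −0.35, limma adjusted p = 0.0006514), but its window also holds a start of Abhd12, and the sign turned when the summit of a peak had to lie in the window (0.12). Among genes of deoxynucleotide synthesis, Rrm1, the large subunit of ribonucleotide reductase, was the only one of 4 to pass. Its percentiles ran from 77.53 to 96.53 with a median of 88.24 in HSC and from 62.02 to 83.01 with a median of 76.41 in BMDM. The ranges overlapped and the difference was 0.63 (SE 0.12, limma adjusted p = 0.0002225).

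All 4 S to M cyclins and kinases were higher in HSC. Ccnb2, a mitotic cyclin, ran from 66.66 to 90.53 with a median of 81.88 in HSC and from 48.22 to 76.64 with a median of 58.90 in BMDM. The overlap was limited to the lowest HSC and the highest BMDM libraries, and the difference was 0.61 (SE 0.094, limma adjusted p = 6.746e-06). Ccna2, Cdk1 and Ccnb1 differed by 0.46, 0.31 and 0.26. Of 9 mitotic genes, 3 were higher, led by Mki67, the proliferation marker Ki-67, with 80.95 to 97.48 and a median of 87.39 in HSC against 59.69 to 83.15 and a median of 74.77 in BMDM (difference 0.62, SE 0.11, limma adjusted p = 8.03e-05). Those ranges overlapped at their ends. Aurkb and Plk1, mitotic kinases, differed by 0.32 and 0.31. Aurka, the spindle pole kinase, was lower in HSC by −0.43 (limma adjusted p = 0.02886), shared its window with Cstf1, and lost its call without the 3 control BMDM libraries (limma adjusted p = 0.08722) or when any of 6 single libraries was left out. These were diabetic unstimulated replicates 4 and 5, control unstimulated replicates 2 and 5, diabetic HSC replicate 1 and control HSC replicate 3. Of the phosphatases and checkpoint kinases only Chek1, a kinase of the replication checkpoint, passed (0.43).

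**Figure D3:**
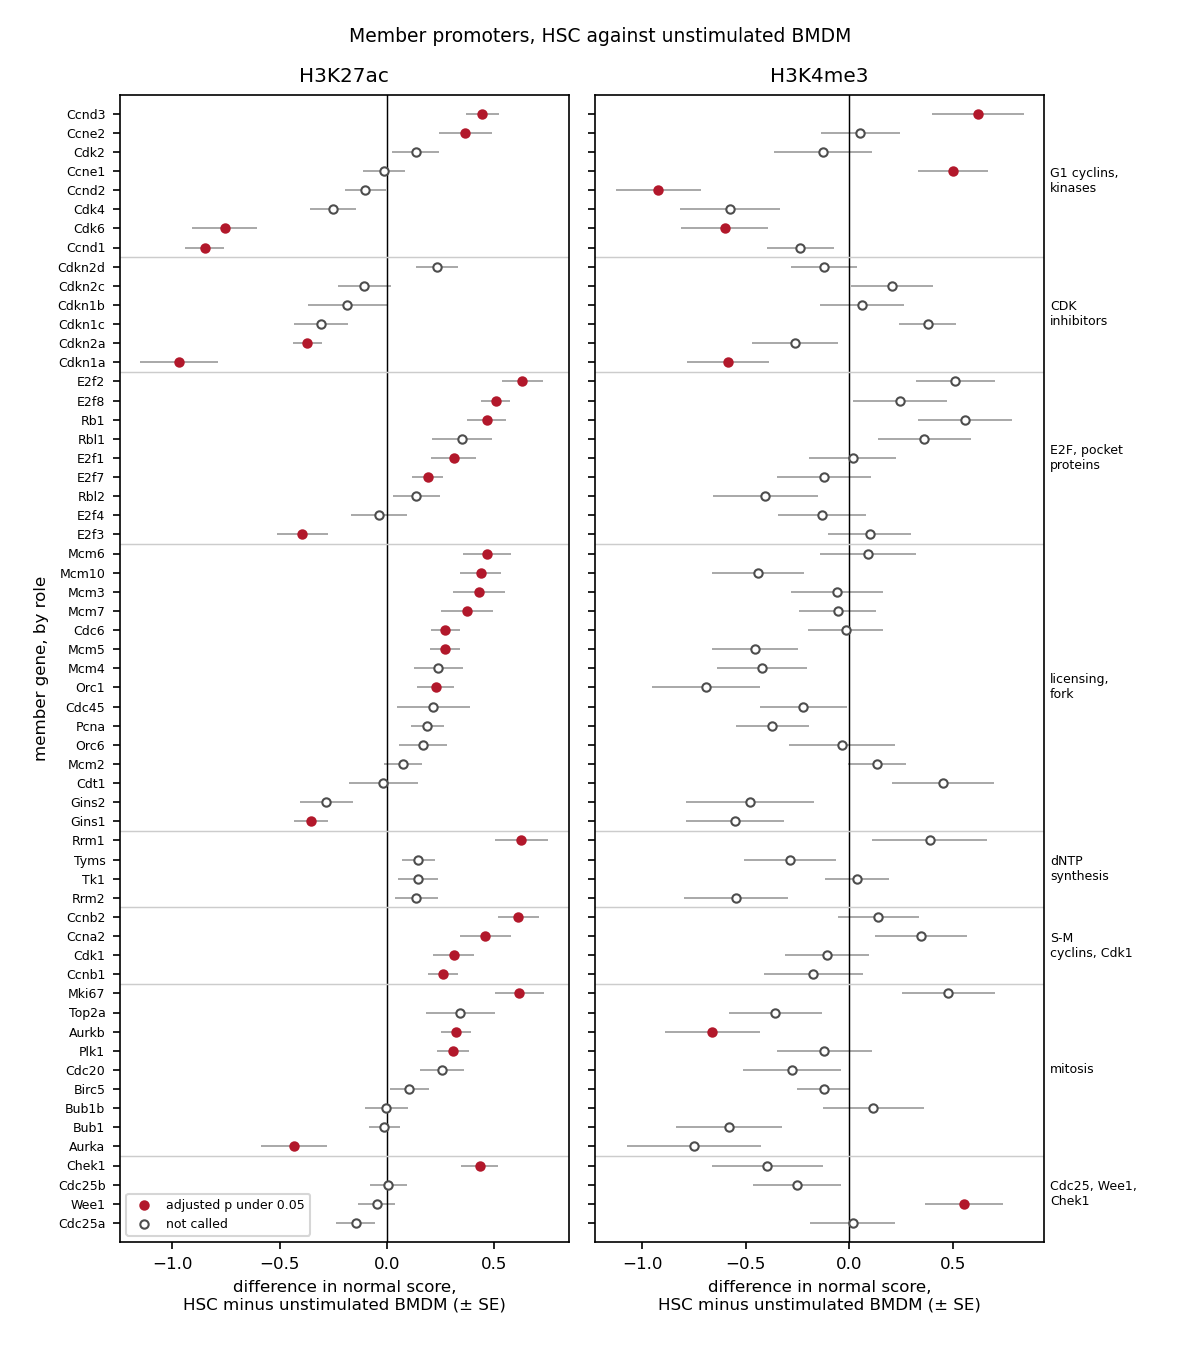
Difference in normal score of the promoter rank, HSC minus unstimulated BMDM (x axis, points, with bars of 1 SE), for each member (y axis, by role) in H3K27ac (left) and H3K4me3 (right), where filled points passed a limma adjusted p of 0.05. In H3K27ac 23 members passed to the right of 0 and 7 to the left, and in H3K4me3 3 and 4.

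The G1 cyclins and kinases split, with 2 higher and 2 lower of 8. Ccnd1, cyclin D1, ran from 33.06 to 57.72 with a median of 50.14 in HSC and from 58.49 to 91.29 with a median of 80.64 in unstimulated BMDM. No HSC library reached a BMDM library, and the difference was −0.85 (SE 0.092, limma adjusted p = 1.644e-08, and 4.403e-10 without the 3 control BMDM libraries). Ccnd3, cyclin D3, was the reverse, from 62.49 to 80.76 with a median of 72.13 in HSC and from 50.98 to 61.72 with a median of 55.21 in BMDM. Its groups did not overlap either, and the difference was 0.45 (SE 0.077, limma adjusted p = 3.784e-05). Ccnd2, cyclin D2, lay between, at 58.84 ± 4.20 in HSC and 62.57 ± 6.33 in BMDM (difference −0.10, limma adjusted p = 0.4461). Cdk6, a partner kinase of D cyclins, ran from 74.70 to 94.07 with a median of 78.91 in HSC and from 79.98 to 99.55 with a median of 94.62 in BMDM. The ranges overlapped and the difference was −0.76 (SE 0.15, limma adjusted p = 0.0002539). Cdk4 differed by −0.25 (limma adjusted p = 0.07205). Ccne2, cyclin E2, was higher in HSC by 0.37 and lost its call without the 3 control BMDM libraries (limma adjusted p = 0.0576), as did E2f7 and Orc1, at 0.0886 and 0.06637.

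Of the 6 kinase inhibitors none was higher in HSC and 2 were lower. Cdkn1a, the inhibitor p21, ran from 71.35 to 94.91 with a median of 80.44 in HSC and from 76.03 to 99.74 with a median of 97.96 in BMDM. The ranges overlapped through 3 control BMDM libraries, unstimulated replicates 5, 6 and 2, at 76.0, 77.9 and 91.4. The difference was −0.97 (SE 0.18, limma adjusted p = 0.0001015) or −1.18 without the 3 control BMDM libraries. In control mice alone it was −0.68 and did not pass (limma adjusted p = 0.05927). Cdkn2a, which codes for p16 and p19, was at 51.11 ± 4.06 and 65.34 ± 6.00 (difference −0.37, limma adjusted p = 6.338e-05). Cdkn1c was at 32.53 ± 11.46 and 43.39 ± 9.37 (difference −0.31, limma adjusted p = 0.06073), with a peak in 8 of 12 HSC and 10 of 11 BMDM libraries and none of these among the 10000 strongest. Cdkn1b, Cdkn2c and Cdkn2d did not pass. When peaks were ranked on fold enrichment in place of −log10 p, calls were lost at 6 of the members named by rule. The difference was 0.67 for Rrm1 (limma adjusted p = 0.05755) and −0.47 for Aurka (0.1324), as large as before. It was 0.22 for Rb1 (0.2375), −0.16 for E2f3 (0.4866), 0.23 for E2f1 (0.2101) and −0.26 for Gins1 (0.2272), smaller than before.

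**Figure D4:**
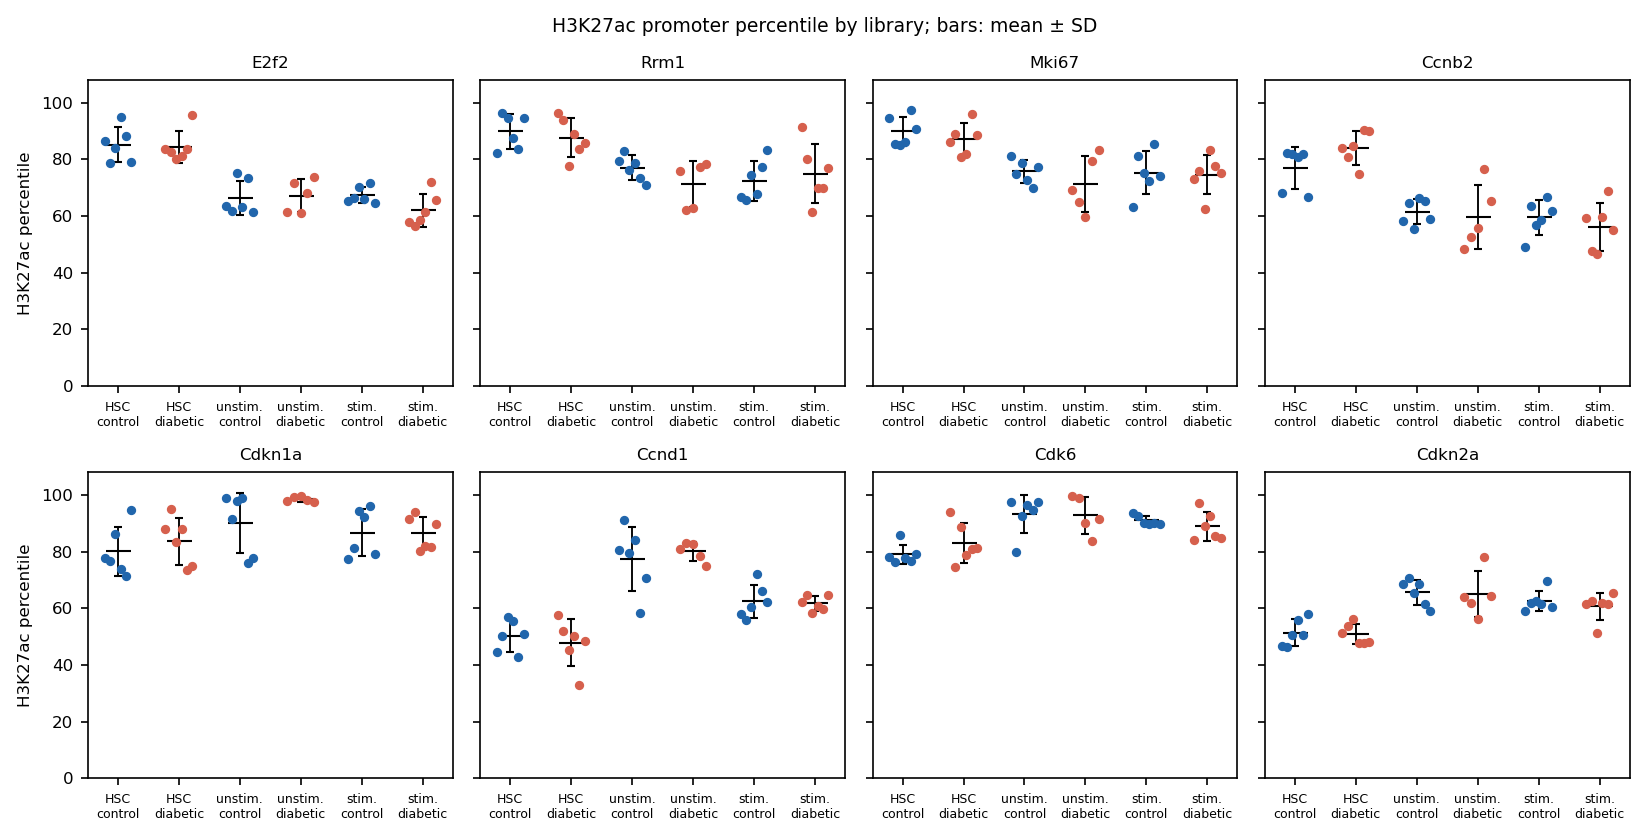
H3K27ac promoter percentile (y axis) of 8 members in each library (points, blue for control and red for diabetic mice), by group (x axis, where unstim. is unstimulated BMDM and stim. is BMDM given LPS+IFN-γ), with lines at the mean ± SD. E2f2, Rrm1, Mki67 and Ccnb2 were highest in HSC, and Ccnd1, Cdkn1a, Cdk6 and Cdkn2a were lowest in HSC.

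Members with several start sites were read site by site over the RefSeq windows. The upstream Cdkn2a start, that of p19, carried H3K27ac in 12 of 12 HSC and 11 of 11 BMDM libraries, 2 and 9 of them among the 10000 strongest peaks, whereas the downstream start, that of p16, was marked in 7 and 8 libraries and never among the strongest. At the Cdkn1a start whose sequence is given above, the median rank of the peak was 4451 in 11 HSC libraries and 402 in 10 BMDM libraries, and the upstream start was marked in 0 and 3 libraries. The downstream Ccnd3 start was among the strongest 10000 in 12 of 12 HSC and 2 of 11 BMDM libraries, and the upstream start in 7 and 0. At the first E2f2 start the counts were 12 and 8, and at the downstream start 0 and 0. Of the 15 members with an E2F match, 9 were higher and 2 were lower in HSC. Of the 32 members with a RefSeq window but no match, 10 were higher and 3 were lower. Over all 14838 promoters tested, 2344 were higher and 2272 lower. A link between a match and the H3K27ac difference was not tested.

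The width of the widest H3K27ac interval at the promoter gave another reading of the same peaks. Of 59 members, 22 were wider and 2 narrower in HSC than in unstimulated BMDM, and over all promoters 29.4% passed, 16.1% wider and 13.3% narrower. Ccnd3 was 4047 ± 808 bp wide in HSC (n = 12) and 1793 ± 517 bp in BMDM (n = 11), and the groups did not overlap (difference in score 1.37, limma adjusted p = 1.148e-07). Ccnd1 was the narrowest against BMDM, at 1102 ± 684 bp and 2678 ± 452 bp (difference −1.70, limma adjusted p = 1.198e-06), followed by Cdkn2a at 1206 ± 360 bp and 1834 ± 202 bp. Plk1, E2f2, Orc1, Mcm7 and Mcm4 were wider by 1.31, 1.19, 1.01, 0.97 and 0.94. The 4 S to M cyclins and kinases were all wider. Aurka was wider in HSC (0.68) although its percentile was lower. Of the 30 members called by rank and the 24 called by width, 17 were shared, 56.67% of the first and 70.83% of the second. The direction was the same in both for 16 of these. Rank and width come from the same intervals, and the overlap over all promoters was not counted.

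For H3K4me3, 7 of 59 members passed, 3 higher and 4 lower in HSC, against 16.0% of 15705 promoters (7.93% higher and 8.10% lower). The median difference was −0.12 over the members and −0.05 over all promoters. H3K4me3 lists were shorter in HSC, with a median of 59730 peaks against 131400 in unstimulated BMDM. The median share of all genes with a peak was 65.64% in HSC and 72.98% in unstimulated BMDM. Aurkb had no peak in diabetic HSC replicate 6 and control HSC replicate 2. The part of list length in the H3K4me3 differences was not tested. Groups overlapped at all 59 members, against 0.0509% of promoters higher and 0.0637% lower without overlap. Ccnd2 had the largest difference, with 50.94 to 80.61 and a median of 58.87 in HSC and 61.43 to 98.48 and a median of 91.04 in BMDM. The ranges overlapped and the difference was −0.92 (SE 0.21, limma adjusted p = 0.004341). Aurkb was lower by −0.66 (limma adjusted p = 0.04736), Cdk6 by −0.60 (0.04815) and Cdkn1a by −0.59 (0.04003), while Ccnd3 was higher by 0.62 (0.04973), the mitotic inhibitory kinase Wee1 by 0.55 (0.0422) and cyclin E1, Ccne1, by 0.50 (0.0412). Ccnd2 kept its call whichever single library was left out, and no other of these members did. With summits in the window Ccnd2 differed by −0.54 (limma adjusted p = 0.06777) and in diabetic mice alone by −0.63 (0.2923), and neither passed. The count fell to between 2 and 4 on leaving out any of 13 libraries, beside 1855 to 2354 of 15705 promoters. These libraries were diabetic unstimulated replicates 1, 2 and 5, diabetic HSC replicates 1, 3 and 4, control unstimulated replicates 1, 2, 5 and 6, and control HSC replicates 3, 4 and 5. Without the 3 control BMDM libraries the count was 2 (10.2% of all promoters).

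Of the 7 members that passed in H3K4me3 and the 30 in H3K27ac, 4 were shared. That was 57.14% of the first and 13.33% of the second, and the overlap over all promoters was not counted. In H3K4me3 none of these 4 passed without the 3 control BMDM libraries, where limma adjusted p ran from 0.07376 to 0.1286. Ccnd3 was higher in HSC in both marks, Cdk6 and Cdkn1a lower in both, and Aurkb higher in H3K27ac and lower in H3K4me3. Other members named above differed in H3K4me3 by amounts that did not pass. These were −0.24 for Ccnd1 (limma adjusted p = 0.3063), 0.48 for Mki67 (0.1338), 0.38 for Cdkn1c (0.05593), −0.37 for Pcna (0.1392), −0.26 for Cdkn2a (0.379), 0.13 for Mcm2 (0.5292), −0.11 for Cdk1 (0.7415) and 0.02 for E2f1 (0.9645). Cdkn1c, low in H3K27ac, was at 74.40 ± 13.27 in HSC and 62.53 ± 7.20 in BMDM in H3K4me3. H3K4me3 intervals were wider at 6 members and narrower at 2 (10.2% of all promoters passed, 3.95% wider and 6.23% narrower). The narrower members were Ccnd2, at 1499 ± 745 bp in HSC and 3332 ± 1593 bp in BMDM, and Ccnd1, at 1594 ± 809 bp and 2642 ± 676 bp. The count by width was 1 without the 3 control BMDM libraries (910 of 15705 promoters). It was 3 to 5 on leaving out any of 11 single libraries, beside 1082 to 1465 of 15705 promoters. These were diabetic unstimulated replicates 2, 4, 5 and 6, diabetic HSC replicates 1 and 6, control unstimulated replicates 3 and 6, and control HSC replicates 2, 4 and 5.

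**Figure D5:**
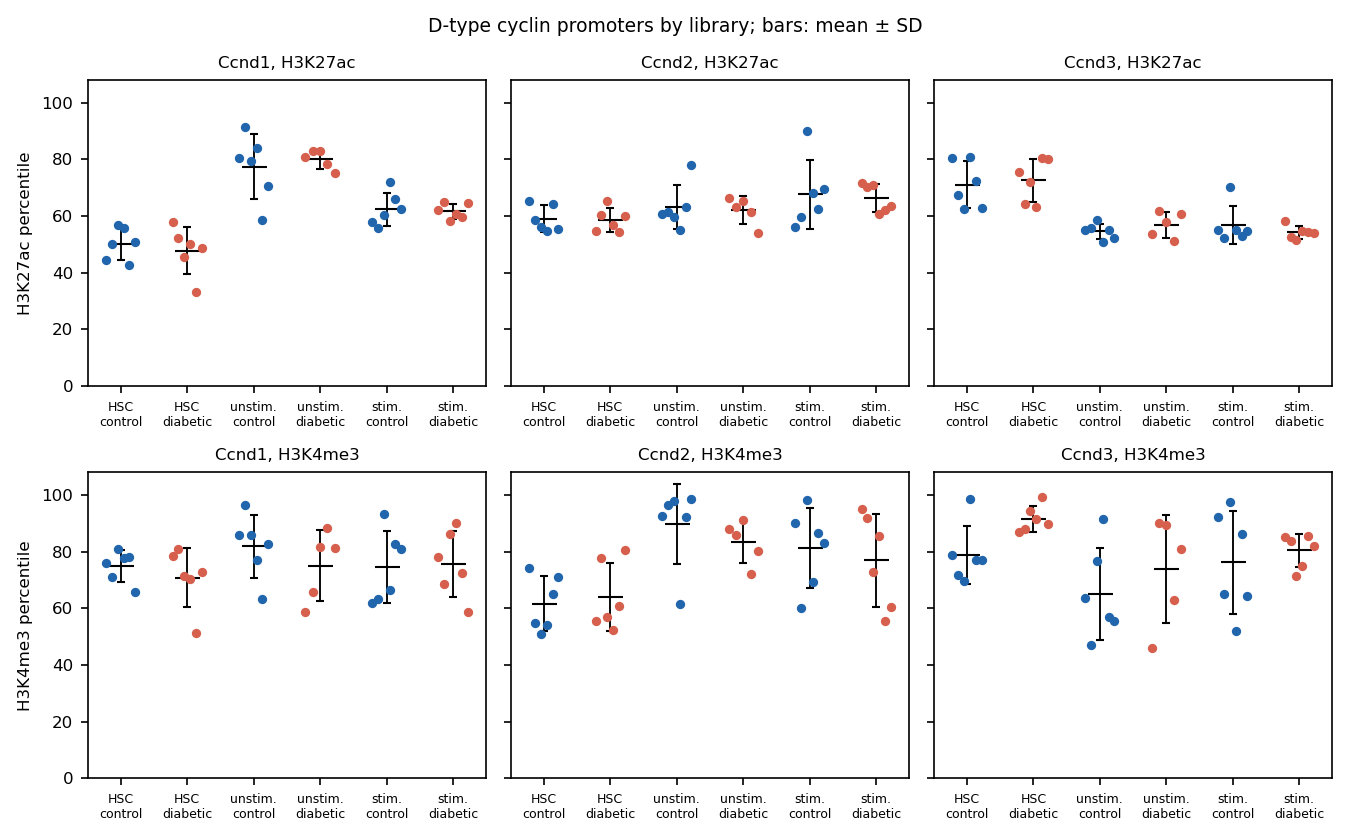
Promoter percentile (y axis) of the D-type cyclins in each library (points, blue for control and red for diabetic mice) for H3K27ac (top) and H3K4me3 (bottom), by group (x axis, stim. is LPS+IFN-γ), with lines at the mean ± SD. Ccnd1 was low and Ccnd3 high in HSC in H3K27ac, and Ccnd2 was low in HSC in H3K4me3.

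Stimulation with LPS+IFN-γ, a proinflammatory signal, was then compared with no stimulation in BMDM. In H3K27ac 2 members were lower after stimulation and 0 higher, against 2.35% of all promoters (1.35% lower and 0.991% higher). Both were also among the members lower in HSC. The HSC and the stimulation comparison share the unstimulated libraries. Ccnd1 was at 80.6, 91.3, 79.4, 84.0, 58.5 and 70.5 in unstimulated BMDM of control mice and at 81.0, 83.0, 82.8, 78.3 and 75.02 in those of diabetic mice. After stimulation it ran from 55.92 to 71.93 with a median of 61.46 in 12 libraries. The groups overlapped through 2 control libraries, unstimulated replicates 5 and 6, and the difference was −0.51 (limma adjusted p = 0.002788, and 9.789e-06 with a difference of −0.63 without the 3 control BMDM libraries). Those 3 libraries were picked by their stimulation pattern. Without them the promoters passing rose from 348 to 1070 of 14838.

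Cdkn1a was at 99.0, 91.4, 97.8, 99.0, 76.0 and 77.9 in unstimulated control BMDM and at 98.0, 99.4, 99.7, 98.4 and 97.5 in unstimulated diabetic BMDM. After stimulation it ran from 77.27 to 96.00 with a median of 85.88. Every unstimulated diabetic library was above every stimulated library, while unstimulated control replicates 2, 5 and 6 were within or below the stimulated range. The difference was −0.77 (limma adjusted p = 0.01798), or −1.03 (0.0001128) without the 3 control BMDM libraries. The call of Cdkn1a was lost with ranks on fold enrichment, where the difference was −0.57 (limma adjusted p = 0.2665), and with percentiles not transformed, where it was −7.80 percentile points (0.1848). With summits in the window the difference was −0.037 (0.9409). Without the 3 libraries 5 members passed, 4 lower and 1 higher, beside 7.21% of all promoters (4.04% lower and 3.17% higher): Gins2 (−0.52, 0.01097), Cdc20, an activator of the anaphase ubiquitin ligase (−0.33, 0.04505), and Ccne1 (0.33, 0.04508) joined Ccnd1 and Cdkn1a. In diabetic mice alone 2 members passed (2.53% of all promoters). In control mice alone, as labelled, 0 members and 0 promoters passed by limma, with 3 members and 778 promoters at an unadjusted p under 0.05. In the comparison over both, 11 of 59 members and 2636 of 14838 promoters had an unadjusted p under 0.05. Of the response markers, 2 of 6 tested were higher after stimulation, Ptgs2 and Cxcl10.

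In H3K4me3 no member passed after stimulation, and no promoter of 15705 did (0%). By limma, 2 members and 859 promoters had an unadjusted p under 0.05. The largest differences were 0.53 for Cdt1, the licensing factor (limma adjusted p = 0.8764), and −0.50 for Cdkn2a (0.819). Ccnd1 and Cdkn1a differed by −0.12 and −0.16.

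Diabetes was compared with control in each cell state, which asks whether promoters change their rank within a list. A gain or loss of a mark shared by all promoters cannot be seen in such ranks. The paper reports more of both marks in diabetic HSC and BMDM by Western blot, a measure not read here. From ChIP-seq, it also describes diabetic and control samples as distinguishable by both marks. At promoters near chromatin more open in diabetic BMDM, it reports more H3K27ac in diabetic HSC. There it reports more H3K4me3 in HSC, with differences persisting in BMDM. Those readings used coverage at selected promoters or variable regions, which was not read here. No member passed in either mark or any of the 3 states, and 0% of all promoters did. By limma, an unadjusted p under 0.05 was met in H3K27ac by 3 members in HSC, 3 in unstimulated and 1 in stimulated BMDM, and in H3K4me3 by 3, 4 and 3, beside 286, 891, 698, 698, 620 and 810 of all promoters in the same order. Control and diabetic groups overlapped at all 59 members in each of these 6 comparisons. Over all promoters of H3K27ac, groups did not overlap with diabetic higher or lower at 0.0472% and 0.0539% in HSC, 0.209% and 0.162% in unstimulated BMDM, and 0.0404% and 0.108% in stimulated BMDM. In H3K4me3 these shares were 0.223% and 0.115%, 0.153% and 0.121%, and 0.0891% and 0.108%.

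The member with the largest difference was different each time. In HSC H3K27ac it was Rbl1, the pocket protein p107, at 84.7, 88.2, 89.6, 89.8, 96.1 and 91.7 in control and 98.2, 95.8, 92.4, 97.7, 93.8 and 97.0 in diabetic mice. The groups overlapped (difference 0.47, limma adjusted p = 0.9998). In unstimulated BMDM it was Cdkn1a (0.71, limma adjusted p = 0.8147), for which the control group holds the unstimulated replicates 5 and 6, and the difference was 0.28 without the 3 libraries and −0.71 with summits in the window. In stimulated BMDM it was E2f3, at 93.16 ± 5.33 in control and 83.86 ± 5.48 in diabetic mice (−0.58, limma adjusted p = 0.7044). In H3K4me3 the corresponding members were E2f2 in HSC (−0.79, limma adjusted p = 0.9902), Top2a, the topoisomerase of dividing cells, in unstimulated BMDM (−0.76, limma adjusted p = 1.0) and Mcm6 in stimulated BMDM (0.93, limma adjusted p = 0.818). None of these differences passed the threshold.

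Whether the disease difference changed with cell state, or the stimulation difference with disease, was tested as an interaction. No member passed, nor any promoter (0%). In H3K27ac the largest stimulation interaction was that of Cdkn1a (−0.77, limma adjusted p = 0.7338). In H3K4me3 it was that of Mcm6 (1.65, limma adjusted p = 0.8756).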

How the data were processed

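H3K27ac and H3K4me3 ChIP-seq lists of 70 libraries were used, and 36 input samples were not used here. The deposited lists are narrow peaks of GRCm38/mm10, called per library against input by the authors. The submitters' processing notes name Trim Galore 0.3.3, cutadapt 1.8, FastQC 0.11.3, Bowtie2 2.2.6, Picard 2.18.14 and 2.19.2, bedtools 2.19.1 and MACS2 2.2.7.1. Each peak in the deposited lists has a score, a fold enrichment (a ratio over the local background), a −log10 p and a −log10 q. The score was not used, the fold enrichment only as an alternative ranking, and no list ran below a −log10 q of 1.30104. The sources used here give no read totals, so depth is unknown. A weak peak can go unlisted in a shallow library, and ranking within a list was meant to limit this.

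GENCODE M21 start sites of 21938 genes (93513 sites) defined promoters. The strongest −log10 p within 1000 bp was ranked within its list, and the percentile was turned into a normal score. Limma 3.58.1 in R 4.3.3 was fitted once per mark on 35 libraries in 6 groups, over promoters with a peak in at least 18 lists (14838 and 15705; all 59 members in both), with Benjamini-Hochberg adjustment over all promoters and a threshold of 0.05. Contrasts of cell state and stimulation were means over control and diabetic mice, without a replicate term. Width was ranked the same way. Scripts were tested on simulated data. The labels do not tie libraries to animals. The study's methods count n as individual animals, so the p-values measure the spread between labelled libraries taken as separate mice. No sequencing batch or date was labelled. Replicate numbers are shared between groups, but same-numbered libraries did not deviate together in every pair.

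Members, marker lists and the second list of 70 genes were chosen with earlier results of these data known. Named are the called members with the largest differences (up to 8 each way by cell state and 4 by stimulation), the largest member where none was called, and 11 genes in any case (Ccnd1, Ccnd2, Cdk6, Cdk1, Cdkn1a, Cdkn1c, Cdkn2a, E2f1, Mcm2, Pcna and Mki67). Ccnd3, Cdk4, Ccne2, E2f7 and Orc1 in H3K27ac by cell state, other members given with values, and those read at single start sites were chosen after their values were seen. At 10 members the window also held a start of another coding gene: Cdk2 with Pmel, Mcm4 with Prkdc, Mcm7 with Ap4m1, Cdc45 with Ufd1, Orc1 with Prpf38a, Orc6 with Vps35, Gins1 with Abhd12, Tk1 with Afmid, Aurka with Cstf1 and Cdc25b with Spef1. Such a peak cannot be assigned to either gene.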

Additional observations from a re-analysis of the deposited data

Results flagged for a closer look

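Numbers of members marked, median percentiles and percentiles of named members were set against the other libraries of a group, in 54 groups of values. In these, 4 lists stood apart, each on the number of members marked. A chance rate of 1 in 20 does not hold where all other libraries are tied, since any differing count is then flagged. In H3K27ac, 58 members were marked in diabetic HSC replicate 6, in control LPS+IFN-γ replicate 3 and in control unstimulated replicate 1, against 59 in every other library of each group. In H3K4me3, 45 members were marked in diabetic HSC replicate 6, against 58 or 59 in the other libraries of that group, and this list held 13730 peaks. Whether depth had a part in this was not tested.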

How the results depend on the processing

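For H3K27ac by cell state, leaving out single libraries gave 27 to 33 members. The count was 16 in control mice alone (2172 of 14838 promoters), 18 in diabetic mice alone (2229) and 13 by Fisher's exact test on the 10000 strongest peaks. For stimulation, single libraries left out gave 2 to 3 members. The count was 5 without the 3 control BMDM libraries (1070 of 14838 promoters). It was 1 with ranks on fold enrichment, with summits in the window or with percentiles not transformed, and 0 in control mice alone (0 promoters) or by Fisher's exact test. For H3K27ac width, single libraries left out gave 20 to 26, control mice alone 11 (1988 of 14838 promoters) and diabetic mice alone 14 (1994). For H3K4me3 by cell state, single libraries left out gave 2 to 9. The count was 4 with a peak in at least 2 lists or with a −log10 q of at least 5, and 3 with summits in the window. It was 2 without the 3 control BMDM libraries (1601 of 15705 promoters) or with the 10000 strongest peaks. It was 1 with ranks on fold enrichment or in control mice alone (675 promoters), and 0 in diabetic mice alone (37 promoters) or by Fisher's exact test. For H3K4me3 width, single libraries left out gave 3 to 9. The count was 1 without the 3 control BMDM libraries (910 of 15705 promoters), 4 in control mice alone (1445) and 0 in diabetic mice alone (19). The causes were not tested, apart from fewer libraries where one disease group was used alone. Every disease and interaction count stayed at 0 under the alternatives run, and so did H3K4me3 stimulation. Where no number of promoters stands beside a count of members, the share over all promoters is not given here.

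With the replicate number as a block, H3K4me3 by cell state had 4 members, H3K27ac by cell state 31, H3K27ac width 23, H3K4me3 width 6 and H3K27ac stimulation 2. These are counts of members, given without the share over all promoters. The H3K4me3 calls that did not pass with the block were Ccnd3 (0.63, limma adjusted p = 0.05782), Wee1 (0.51, 0.05679) and Cdkn1a (−0.57, 0.0625). Same-numbered libraries did not correlate above 0.1 in every pair, so the numbers were not taken to pair the libraries. Between unstimulated and stimulated BMDM, the mean correlation was 0.085 to 0.156 for the same number and −0.031 to −0.017 for other pairs. Between HSC and BMDM, the mean for the same number was −0.093 to 0.058.

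Differences that turned sign were small or did not pass, except for Gins1 in H3K27ac by cell state with summits in the window (0.12). Cdkn1a in unstimulated H3K27ac, diabetic against control, was −0.71 with summits in the window. In H3K27ac by cell state, Mcm2 was −0.014 in control mice alone. In H3K4me3 by cell state, ranks on fold enrichment gave 0.063 for Ccnd1 and 0.10 for Cdk1, diabetic mice alone gave 0.18 for Cdk1 and −0.029 for Mcm2, and E2f1 was −0.097 without the 3 control BMDM libraries, −0.17 in control mice alone, and −0.072 to 0.15 over single libraries left out. In H3K4me3 stimulation, Ccnd1 was 0.023 in diabetic mice alone, and Cdkn1a was 0.024 with fold enrichment, 0.15 with summits in the window and −0.26 to 0.0045 over single libraries left out.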
